A study of Homo sapiens with 18 samples.

Results

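The mRNA of U251 cells was compared between 18 h of enzastaurin and 18 h of its solvent DMSO. The comparison rests on 6 of the series' 18 arrays, 3 labelled U251 with enzastaurin at 18 h and 3 labelled U251 with DMSO at 18 h, and on 12376 of 19775 genes, those whose brightest probe set lay at or above the median level of all probe sets. U251, an established line of human glioblastoma cells, was grown in RPMI medium with 5% serum in every group. Other arrays of the series hold the same treatments at 4 h and 10 h, 3 arrays per group, each time with DMSO arrays of its own. The labels give no dose of enzastaurin and do not say that the 3 arrays of a group came from separate cultures, so p-values measure only how these samples spread, and that spread may be technical. A culture of 1 cell line holds no vessels or immune cells, which limits it as a model of a tumour.

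Enzastaurin was developed as an inhibitor of protein kinase C beta and is known to act on other kinases, and the series' title speaks of blocking GSK3 and of MYC, NF-kB and glucose. GSK3 phosphorylates beta-catenin and so marks it for degradation; when this fails, beta-catenin enters the nucleus, joins the TCF and LEF factors and switches on genes that include the pathway's own inhibitors. GSK3 also phosphorylates MYC, glycogen synthase and the SREBP factors of lipid synthesis.

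Each array gave 1 scaled intensity per probe set. Medians of the 6 arrays lay between 109.9 and 125.9, and arrays correlated at 0.9528 to 0.9617 within a group and at 0.9457 to 0.9575 between groups (log2 values of 54613 probe sets). Of 15 astroglial and glioma markers with a probe set, 9 reached the level; VIM, CD44, FABP7, NES and SOX2 were present, while GFAP (18 in DMSO, 54 in enzastaurin), S100B, AQP4, CHI3L1, PROM1 and OLIG2 lay under it. Of 19 markers of other cell types with a probe set, 8 reached the level and none was listed at 0. Their summed intensity ran from 3214 to 3826 in DMSO and from 4095 to 4612 in enzastaurin, and without the neuronal genes SYT1 and GAD1, left out after their values were seen, from 1781 to 2158 and from 1599 to 2149.

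After 18 h, 1981 genes, 16% of those tested, had changed (limma, Benjamini-Hochberg adjusted p under 0.05, the rule behind every call here). Of these 1003 were higher, 8.1% of the genes tested, and 978 were lower, 7.9%. Counts of called list members below are to be read against these shares. With array medians subtracted 1187 were called. Most changes were small. The median size of a called change was 0.45 on the log2 scale, 1353 calls were under 1.5-fold, 197 genes (1.59%) changed at least 2-fold (103 up, 94 down) and 12 at least 4-fold (8 up, 4 down). The 2-fold count was 107 with only the brightest 25% of probe sets, where fewer genes were tested, and 128 with probe sets averaged. Averaging took in every probe set of a gene, also those under the level. A call lost that way may thus reflect dim probe sets. Ranges over a gene's probe sets given below cover only those at or above the level. In 3681 genes (29.7%) the enzastaurin arrays did not overlap the DMSO arrays. Among them were 1914 of the 1981 called genes, so groups that stand apart add little to a call. Changes are log2 differences of intensity plus 16, which understates the change of dim genes, and the median change of all genes was 0.001.

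**Figure D1:**
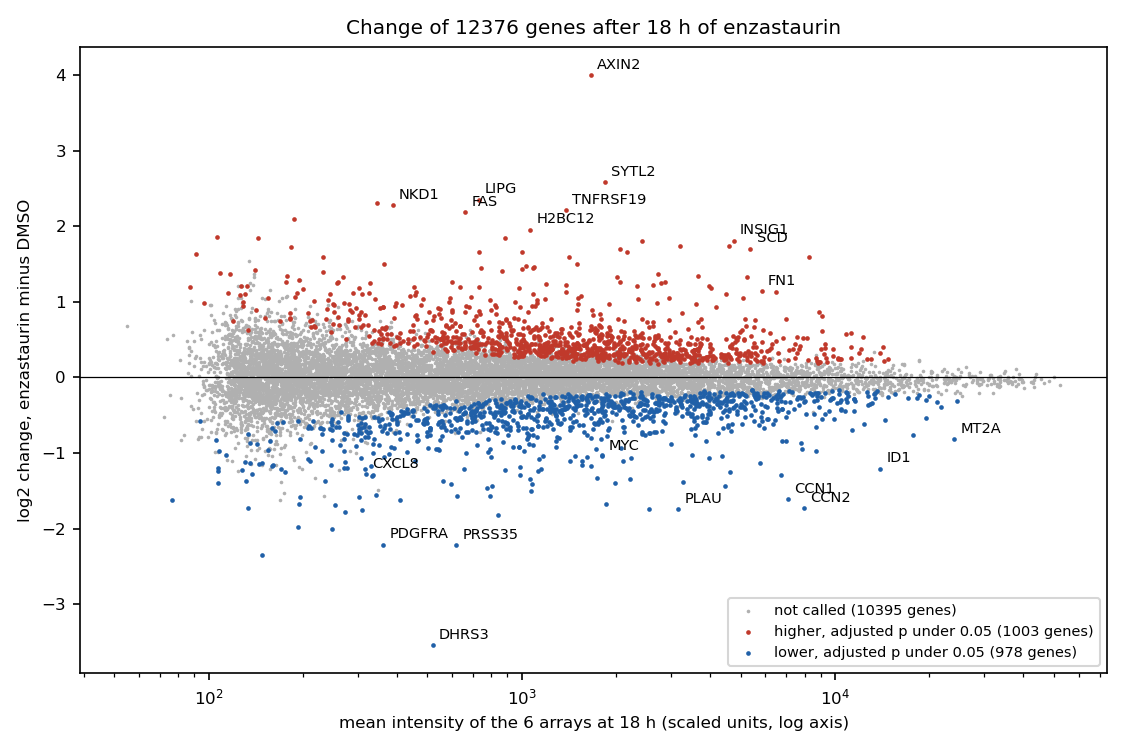
Each point is 1 of the 12376 genes, with its mean intensity over the 6 arrays at 18 h on a log axis and its log2 change (enzastaurin minus DMSO); red genes were called higher (1003), blue genes lower (978) and grey genes not called. Dim genes scatter more widely, so small changes were called mainly among bright genes, and AXIN2 and DHRS3 stand at the ends.

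Bright genes were measured more precisely. In 4 equal bins of the genes tested, from the dimmest to the brightest, the mean standard error of a change was 0.314, 0.173, 0.111 and 0.084, and 3.49%, 12.5%, 22.4% and 25.6% of genes were called. Changes of at least 2-fold had a flatter course, at 1.94%, 1.78%, 1.55% and 1.1%. A dim gene that was not called may thus have changed by an amount that 3 arrays per group do not resolve.

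Promoter sequence was set beside several of the gene groups described below, from the RefSeq table of human promoters (GRCh38.p14), which covered 10079 of the 12376 genes. Motifs were searched on both strands, from 250 bases before to 50 after the start, and matches of different motifs may overlap. The sequences shown each belong to a called gene that the results below turn on and that holds a match, and are read 5′ to 3′ along the gene, with the match in capitals and only the 250 bases before the start. ASNS carries TGATGNAA, a core shared by ATF4 and C/EBP factors, at 68 bases before its start (chr7:97872409-97872658, minus strand). CCN2 carries GGAATG, the core bound by TEAD factors, in 3 copies (chr6:131951373-131951622, minus strand). CXCL8 carries GGNNTTTCC, an NF-kB core, at 91 bases before its start (chr4:73740319-73740568, plus strand). H2BC12 carries the octamer ATTTGCAT at 46 bases before its start (chr6:27146859-27147108, minus strand).
ASNS: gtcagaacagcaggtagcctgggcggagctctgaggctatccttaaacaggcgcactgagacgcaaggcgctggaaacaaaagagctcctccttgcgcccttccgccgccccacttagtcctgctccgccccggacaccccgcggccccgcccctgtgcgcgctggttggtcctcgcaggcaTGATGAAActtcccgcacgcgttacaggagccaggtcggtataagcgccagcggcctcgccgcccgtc
CCN2: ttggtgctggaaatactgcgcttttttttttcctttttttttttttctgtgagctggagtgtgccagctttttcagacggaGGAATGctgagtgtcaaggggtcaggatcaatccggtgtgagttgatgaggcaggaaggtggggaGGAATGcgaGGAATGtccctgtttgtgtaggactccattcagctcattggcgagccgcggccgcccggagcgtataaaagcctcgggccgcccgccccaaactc
CXCL8: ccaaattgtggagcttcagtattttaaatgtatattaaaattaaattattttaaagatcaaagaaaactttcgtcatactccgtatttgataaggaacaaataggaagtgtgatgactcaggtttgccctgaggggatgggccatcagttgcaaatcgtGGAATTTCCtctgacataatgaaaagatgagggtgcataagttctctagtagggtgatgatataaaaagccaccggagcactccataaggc
H2BC12: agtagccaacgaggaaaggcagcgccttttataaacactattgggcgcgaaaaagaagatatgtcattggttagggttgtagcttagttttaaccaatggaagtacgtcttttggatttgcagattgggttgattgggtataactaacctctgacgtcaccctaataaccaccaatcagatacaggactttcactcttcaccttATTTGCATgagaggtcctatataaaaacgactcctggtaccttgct

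Feedback genes of the Wnt pathway were higher, and the pathway's own inhibitors were among them. Of 15 measured genes of Wnt feedback and beta-catenin targets 9 were higher and none lower, with a median log2 change of 0.69. ZNRF3, a ubiquitin ligase that removes Wnt receptors from the membrane, read 1008, 930 and 940 in DMSO and 3268, 2866 and 3346 in enzastaurin. That is a change of 1.70 (SE 0.08, adjusted p = 9.12e-12), with every treated array above every control. LEF1, the nuclear partner of beta-catenin, went from 965, 1209 and 950 to 3372, 3027 and 3532 (1.66, SE 0.13, adjusted p = 8.36e-09). NOTUM, a secreted enzyme that inactivates Wnt ligands, was dimmer, at 263, 327 and 217 against 678, 496 and 745 (1.2014, SE 0.26, adjusted p = 0.00255). AXIN2, the scaffold that rebuilds the destruction complex, went from 230, 139 and 186 to 3325, 2928 and 3160 (4.00, SE 0.13), and its 4 probe sets lay between 2.42 and 4.00. Not every target moved: CCND1 (cyclin D1) stood at 3237, 3601 and 3126 against 3344, 2989 and 3327 (-0.04, adjusted p = 0.737), and DKK1, SOX9 and CD44 were not called. The receptor gene list (11 measured, 2 higher, 1 lower, median 0.04) held FZD2, a Frizzled receptor, which fell from 1318, 1011 and 1229 to 390, 427 and 459 (-1.44, SE 0.15, adjusted p = 1.01e-06). The second probe set of FZD2 gave -0.22. FZD5 rose (0.51), a call that was lost when probe sets of a gene were averaged (adjusted p = 0.722). The second riser, FZD7, was not called when DMSO replicate 3 (adjusted p = 0.0571) or enzastaurin replicate 1 (0.0938) was left out. RNF43, SP5 and LGR5 lay under the level. With only the brightest 25% of probe sets, which tested 7627 genes, 5 of the Wnt feedback genes were called. No call of a gene held by the naming rule was lost there among those it tested. The TCF and LEF core CTTTGAT stood in 0 of the 3 promoters held for higher feedback genes and 1 of 3 of those not called. It stood in 2.64% of all promoters and 1.52% of those of the genes tested.

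Genes of GSK3 and of protein kinase C, the kinases linked to the drug, were called in 2 of 11 and 3 of 10 cases, against 16% of all genes tested. GSK3B rose from 2185, 2295 and 2131 to 3214, 2971 and 3081, a change of 0.48 (SE 0.07, adjusted p = 6.81e-05) in which the groups did not overlap. Its other probe sets at or above the level gave 0.28, 0.31 and 0.47 and were not called. GSK3A read 1036, 816 and 1030 against 959, 911 and 1188 (0.08, adjusted p = 0.748). Neither value says anything of kinase activity. Of 11 measured genes of GSK3 and the destruction complex 1 was higher and 1 lower (median 0.08), and the lower one was TCF7L2, a partner of beta-catenin (-0.24). Its call ended when DMSO replicate 1 or 2 or enzastaurin replicate 2 or 3 was left out (adjusted p = 0.0543 to 0.09) and with probe sets averaged (-0.06, adjusted p = 0.806). Without DMSO replicate 3 there were 2 lower genes, and without DMSO replicate 2 or enzastaurin replicate 3 there were 2 higher ones. AXIN1, a scaffold of the complex, changed by 1.29 without passing the test (adjusted p = 0.104), and beta-catenin itself, CTNNB1, changed by -0.19 (adjusted p = 0.0976). Among 10 protein kinase C genes 1 was higher and 2 lower (median -0.12). The second lower one, PRKCD (-1.23, adjusted p = 0.0494), lost its call in 13 alternatives, among them leaving out any 1 of the 3 DMSO arrays or enzastaurin replicate 1 or 3 (adjusted p up to 0.247). PRKD3 rose by 0.59 and PRKCA fell by 0.40 on their brightest probe sets, and both calls were lost with probe sets averaged (adjusted p = 0.134 and 0.582). PRKCB, the gene of the kinase that enzastaurin was made against, was dim, at 193, 116 and 135 against 115, 63 and 130 (-0.49, adjusted p = 0.388).

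MYC, a transcription factor that drives growth, fell from 2523, 2362 and 2412 to 1273, 954 and 1325. It had only 1 probe set at or above the level. Of 10 measured genes of MYC, its partners and its antagonists 3 were lower and none higher (median -0.07). Without DMSO replicate 3 MYC alone was called, since MXD3 (adjusted p = 0.0564) and MLXIP (0.0504) were lost. Its partner MAX read 2575, 2535 and 2753 against 2642, 2604 and 2596 (0.00, adjusted p = 0.992). Ribosome biogenesis genes, many of which MYC is known to activate, were called in 15.8%, against 16% of all genes tested. Of 19 measured 3 were higher and none lower (median 0.11). Those 3 were PES1 (0.56), NOP16 (0.45) and MRTO4 (0.27), each lost with probe sets averaged (adjusted p = 0.067, 0.522 and 0.125). MRTO4 was also lost with array medians subtracted (adjusted p = 0.0802), and NOP16 changed by 0.27 without enzastaurin replicate 2.

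Genes of the integrated stress response were higher. This response slows translation and raises the factor ATF4, which switches on amino acid supply. Of 19 measured regulators 14 were higher and none lower (median 0.55), and 1 was lower without enzastaurin replicate 2. TRIB3, a pseudokinase that restrains ATF4, went from 1636, 1443 and 1341 to 4617, 4921 and 5297 (1.74, SE 0.09, adjusted p = 3.36e-11). ATF4 rose from 8903, 9448 and 8678 to 13143, 12726 and 14863 (0.59, SE 0.07, adjusted p = 6.66e-06). SESN2, which restrains mTORC1 when leucine is short, rose by 1.18, and DDIT4, another inhibitor of mTORC1, by 1.11. In all of these the arrays of the groups stood apart, as they did in 1914 of the 1981 called genes. DDIT3, the death-linked factor CHOP, read 847, 641 and 756 against 923, 808 and 891 (0.23, adjusted p = 0.353).

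Genes of amino acid supply were higher in 3 lists. Of 13 measured amino acid and one-carbon enzymes 10 were higher and none lower (median 0.54). ASNS, asparagine synthetase, went from 2936, 2889 and 3076 to 6722, 7293 and 8514 (1.33, SE 0.09, adjusted p = 2.86e-09), and CTH, which makes cysteine, rose by 1.10. The serine pathway enzymes PHGDH and PSAT1 rose by 0.75 and 0.62. Of 16 measured amino acid transporters 8 were higher and none lower (median 0.45). SLC3A2, the shared heavy chain of several exchangers, went from 2687, 2707 and 3186 to 4661, 5351 and 6463 (0.93), its partner SLC7A5 rose by 0.77, and SLC1A4 by 0.83. Of 17 measured cytosolic tRNA synthetases, which load amino acids onto tRNAs, 11 were higher and none lower (median 0.29). YARS1 went from 4718, 5068 and 5113 to 6893, 7629 and 7886 (0.59, SE 0.06, adjusted p = 1.23e-06) and GARS1 rose by 0.54. The core TGATGNAA stood in the promoters of 5 of 9 higher synthetase genes, 3 of 7 higher transporters, 2 of 7 higher enzymes and 2 of 12 higher regulators, against 3.67% of all 27305 promoters and 1.9% of those of the genes tested. Among members that were not called it stood in 0 of 5 synthetases, 1 of 7 transporters, 1 of 3 enzymes and 0 of 5 regulators.

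Genes of the endoplasmic reticulum included rises and no called falls. Of 22 measured chaperones and degradation genes 8 were higher and none lower (median 0.14), and 5 were higher with probe sets averaged. DNAJB9, a co-chaperone, went from 1338, 1276 and 1410 to 2125, 2201 and 2238 (0.70, SE 0.10, adjusted p = 4.4e-05). XBP1, a transcription factor of the unfolded protein response, rose by 0.56 and its activating enzyme ERN1 by 0.76, both lost with probe sets averaged (adjusted p = 0.0656 and 0.428). The main chaperone HSPA5 changed by 0.10 and was not called.

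Sterol synthesis was the list with the highest share of called members. Of 15 measured enzymes 13 were higher and none lower (median 0.77). HMGCS1, which makes the precursor of mevalonate, went from 676, 668 and 739 to 2146, 2385 and 1856 (1.59, SE 0.17, adjusted p = 1.11e-06). MSMO1, a sterol oxidase, went from 1672, 1370 and 1482 to 3911, 4312 and 3537 (1.37, SE 0.10). IDI1, SQLE and DHCR7, enzymes from the middle to the end of the pathway, rose by 1.18, 1.05 and 1.23. Among 19 measured sensors and uptake genes 9 were higher, 9 were not called and 1 was lower (median 0.19). The lower one was MBTPS1 (-0.59, limma adjusted p = 0.00552). INSIG1, which holds the SREBP factors back in the endoplasmic reticulum, went from 2140, 2145 and 2014 to 7280, 7734 and 7192 (1.81, SE 0.08, adjusted p = 1.65e-12), and STARD4, a sterol carrier, rose by 1.45. SREBF2, the factor of sterol genes, rose by 0.68, while SREBF1, the factor of fatty acid genes, was not called (0.09, adjusted p = 0.843). Fatty acid synthesis had 6 of 16 members higher and 1 lower (median 0.18), and 2 lower without enzastaurin replicate 3. The desaturase SCD went from 2308, 2755 and 2501 to 8177, 7915 and 8600 (1.70, SE 0.08, adjusted p = 3.96e-12), the synthase FASN rose by 1.26 and ACSL1 by 0.94. The CCAAT box, known to work beside SREBP sites, stood in 10 of 11 promoters of higher sterol enzymes and 1 of 2 of those not called. It stood in 35.7% of all promoters and 37.2% of those of the genes tested. The sterol core TCACNCCAC stood in 0 of those 11 and 0 of those 2 (1.15% and 1.1%).

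**Figure D2:**
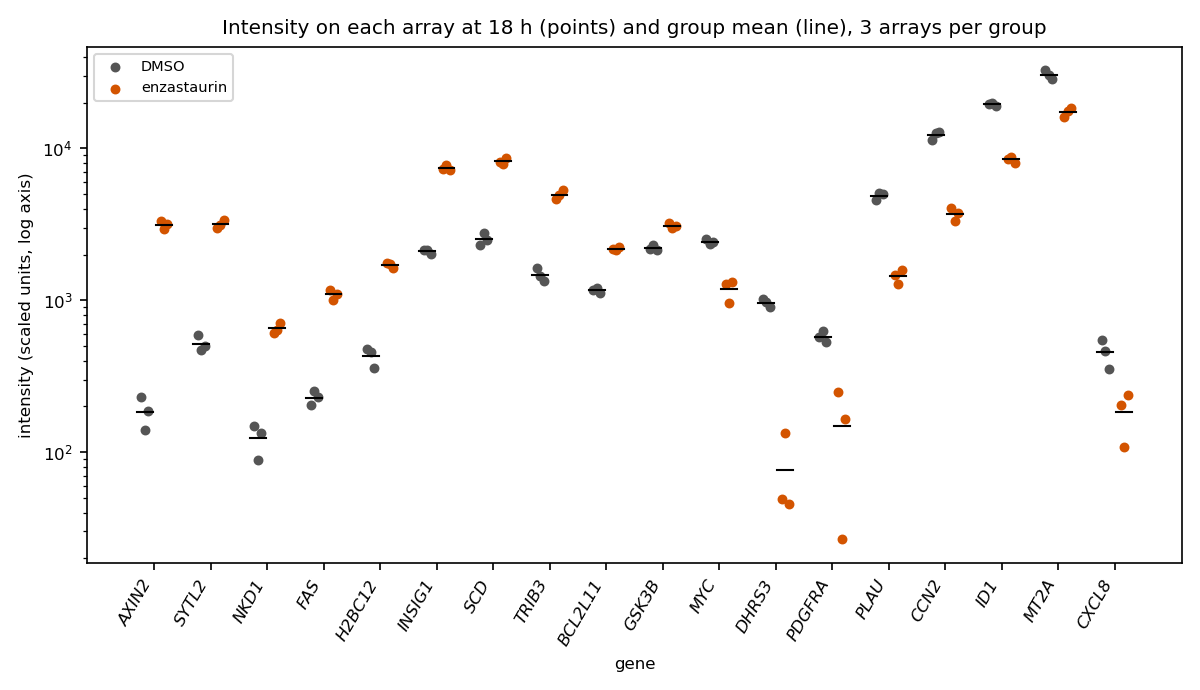
Intensity of 18 genes on each of the 6 arrays at 18 h, on a log axis, with DMSO in grey, enzastaurin in orange and a line at each group mean. Both groups stand apart in every gene drawn, and the spread is widest in DHRS3 and PDGFRA, which are dim under enzastaurin.

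Genes switched on by YAP and by TGF-beta were lower. YAP works with TEAD factors to keep growth and matrix genes active in spread cells. Of 22 measured targets 12 were lower and 1 higher (median -0.50); none was higher when any 1 array other than enzastaurin replicate 2 was left out. CCN2, a secreted matrix protein, went from 11281, 12682 and 12854 to 4026, 3332 and 3752 (-1.73, SE 0.07, adjusted p = 1.65e-12). CCN1, its relative, went from 9480, 11586 and 11008 to 3766, 3332 and 3335 (-1.61, SE 0.09). THBS1 (thrombospondin) changed by -1.07 and AMOTL2, a YAP-binding protein, by -0.88, with groups apart in both; the 6 probe sets of THBS1 lay between -1.35 and 0.04. The TEAD core GGAATG stood in 3 of 10 promoters of lower members and 3 of 7 of those not called, against 14% of all promoters and 11% of those of the genes tested, and CCN2 held 3 copies, shown above.

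ID genes, which encode inhibitors of basic helix-loop-helix factors and are known to follow BMP signals, were lower too. Of 13 measured ID and BMP feedback genes 6 were lower and 2 higher (median -0.08). ID1 went from 19730, 19878 and 18944 to 8501, 8798 and 8055 (-1.21, SE 0.07, adjusted p = 2.3e-10). ID3 changed by -0.84, ID2 by -0.66 and SMAD6, an inhibitory SMAD, by -0.91. SMAD7 was not called (0.35, adjusted p = 0.212). The 2 higher members were BAMBI (1.04) and HEY1 (0.72), which also belong to the Wnt and Notch lists.

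Matrix genes split. Of 27 measured collagens and other matrix genes 2 were higher and 5 lower (median -0.07). FN1, fibronectin, went from 3186, 3923 and 3753 to 7889, 6824 and 9482 (1.14, SE 0.10, adjusted p = 5.27e-08). Its 5 probe sets at or above the level lay between 0.79 and 1.14. COL1A1 fell by 0.92, LOXL2 by 0.54 and COL8A1 by 0.51, each lost with probe sets averaged (adjusted p = 0.211, 0.625 and 0.601). With probe sets averaged 2 matrix genes were lower, and 3 were without DMSO replicate 2 or without enzastaurin replicate 3. Without DMSO replicate 1 only 1 matrix gene was higher. Of 14 measured integrins 4 were lower and none higher (median -0.11), and 2 were without either of the same arrays. ITGB8 went from 2154, 2242 and 2422 to 1432, 1099 and 1010 (-0.95, SE 0.14, adjusted p = 3.99e-05).

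The urokinase system, which cuts plasminogen and matrix, fell in several parts. Of 15 measured members of this list and the metalloproteases 5 were lower and 1 higher (median -0.09), and none was higher without DMSO replicate 1 or enzastaurin replicate 3. PLAU, urokinase, went from 4543, 5105 and 4988 to 1475, 1283 and 1580 (-1.75, SE 0.08, adjusted p = 3.96e-12). Its receptor PLAUR changed by -0.57, the related activator PLAT by -1.07 and the protease inhibitor TIMP2 by -0.52. In these 4 genes all treated arrays lay below all controls; groups stood apart in 1914 of the 1981 called genes.

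NF-kB targets and interferon genes included more falls than rises. Of 18 measured NF-kB targets 4 were lower and none higher (median -0.16). CXCL8, interleukin 8, went from 544, 465 and 354 to 206, 109 and 237 (-1.28, SE 0.21, adjusted p = 0.000227), and both its probe sets fell. CCL2, a chemokine, went from 451, 416 and 313 to 82, 142 and 113 (-1.68, SE 0.32, adjusted p = 0.00089). TNFAIP2 changed by -1.17. NFKBIA, the pathway's inhibitor, changed by -0.68 (adjusted p = 0.0549 with probe sets averaged), and TNFAIP3, another inhibitor, was not called (-0.22, adjusted p = 0.398). The motif GGNNTTTCC stood in 3 of 3 promoters of lower members and 4 of 10 of those not called, against 6.26% of all promoters and 6.5% of those of the genes tested. Of 24 measured interferon-stimulated genes 6 were lower and 1 higher (median -0.06). With only the brightest 25% of probe sets, where fewer genes were tested, 3 were lower. ISG15, a ubiquitin-like modifier, went from 2450, 1963 and 1729 to 1288, 1184 and 1109 (-0.76, SE 0.11), IFIT1 changed by -1.73, and IFI44L rose by 0.72.

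Growth factor signalling gave mixed directions. Among 19 measured immediate early genes 4 were higher and 3 lower (median 0.00), and 1 was lower without DMSO replicate 2 or enzastaurin replicate 2. EGR1 went from 1111, 979 and 1050 to 1996, 1983 and 1911 (0.90, SE 0.16, adjusted p = 0.000474), while JUN went from 5219, 6443 and 6823 to 4218, 3801 and 3904 (-0.62, SE 0.11). FOS lay under the level. Of 18 measured feedback genes of the ERK pathway 6 were higher and 2 lower (median 0.09), with the inhibitors SPRY4 and SPRY2 up by 0.93 and 0.78, and 1 was lower without enzastaurin replicate 3. Of 16 measured receptor kinases 2 were higher and 5 lower (median -0.13), and 3 were lower with probe sets averaged and without any 1 of DMSO replicates 2 and 3 and enzastaurin replicate 2. Without any 1 of DMSO replicates 1 and 3 and enzastaurin replicates 1 and 3, 1 was higher. AXL, a receptor of Gas6, went from 5390, 5719 and 5088 to 3623, 2946 and 3669 (-0.66, SE 0.08). PDGFRA, read by 1 probe set at the level, changed by -2.21 with a wide spread under enzastaurin (250, 27 and 166). Its call was lost when that probe set was averaged with those under the level (-0.59, limma adjusted p = 0.173). Without enzastaurin replicate 2 PDGFRA changed by -1.42. EGFR rose by 0.53, lost with probe sets averaged (adjusted p = 0.434).

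Called mitosis genes were all lower, mostly by small amounts, and called replication genes went both ways. Of 33 measured mitosis and G2/M genes 13 were lower and none higher (median -0.22), and 8 were lower with array medians subtracted. That is 39.4% called in the main fit, against 16% of all genes tested and 25.6% in the brightest of the 4 bins. KIF20A, a kinesin of cell division, went from 5768, 5469 and 5354 to 3283, 3544 and 3851 (-0.64, SE 0.08, adjusted p = 7.52e-06). NUSAP1, a spindle protein, changed by -0.45, and NEK2, a centrosome kinase, by -0.48. The largest fall of the list was CDC25C (-0.92, limma adjusted p = 7.26e-06), lost with probe sets averaged (-0.51, adjusted p = 0.08). CCNB1 (-0.04, adjusted p = 0.738) and CDK1 (-0.32, adjusted p = 0.0804) were not called. The CCAAT box stood in 10 of 11 promoters of lower members and 13 of 17 of those not called, and TTTGAA, the core of the cell cycle homology region, in 6 of 11 and 11 of 17 (15.4% of all promoters, 10.4% of those of the genes tested). Of 28 measured replication genes 4 were higher and 3 lower (median -0.01), with FEN1, a flap nuclease, up by 0.51 and TK1, thymidine kinase, at -0.35. Replication genes were called in 25%, against 16% of all genes tested and 25.6% in the brightest of the 4 bins. The 4 higher ones were 2 without DMSO replicate 1 or 3, and the 3 lower ones were 1 without enzastaurin replicate 3. Of 19 measured G1 genes 3 were higher and 2 lower (median 0.18): cyclin CCNE2 rose from 2138, 2157 and 2258 to 3234, 3270 and 2935 (0.52), CDK4 rose by 0.38 and CDK6 changed by -0.44. Only 1 G1 gene was lower without any 1 array other than enzastaurin replicate 1. The inhibitor CDKN1A read 1101, 1018 and 1136 against 1165, 976 and 1130 (0.00, adjusted p = 0.992).

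Clustered histone genes, whose copies are alike enough that probe sets may not separate them, had 2 of 14 measured members higher and none lower (median 0.17). That is 14.3% called, against 16% of all genes tested. H2BC12 went from 474, 453 and 357 to 1753, 1721 and 1620 (1.96, SE 0.13, adjusted p = 2.22e-09). The other higher member, H2AC6 (0.52, adjusted p = 0.0434), lost its call when any 1 of the 6 arrays was left out (adjusted p = 0.0601 to 0.142), which leaves H2BC12 alone. Without DMSO replicate 3 or enzastaurin replicate 1, 1 histone gene was lower. The octamer ATTTGCAT stood in both promoters of higher members and in 5 of 12 of those not called, against 1.8% of all promoters and 1.23% of those of the genes tested.

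Among genes of cell death, calls included receptors and BH3 proteins, which set off apoptosis, and these went in both directions. Of 13 measured death receptor genes 3 were higher and 2 lower (median -0.21); none was lower without DMSO replicate 3, and 1 without any 1 of the enzastaurin arrays. FAS, the receptor of Fas ligand, went from 204, 250.8 and 231 to 1175, 1006 and 1101 (2.19, SE 0.17, adjusted p = 9.35e-09), and its 4 probe sets lay between 1.44 and 2.19. TNFRSF21 rose by 0.66, and the receptor TNFRSF12A was lower (-0.26, limma adjusted p = 0.0286). CYLD, a deubiquitinase, changed by -2.00 on its brightest probe set, but another of its 5 gave 0.10, and leaving out DMSO replicate 3 (adjusted p = 0.0605) or enzastaurin replicate 3 (-1.196, adjusted p = 0.134) ended the call, as did a fit with no trend. Of 13 measured BCL2 family genes 2 were higher and 3 lower (median 0.10). BCL2L11, the BH3 protein BIM, went from 1165, 1210 and 1122 to 2169, 2148 and 2242 (0.90, SE 0.08, adjusted p = 4.05e-08), although its 7 probe sets ran from 0.08 to 0.90, and PMAIP1, the BH3 protein NOXA, rose by 0.67. BNIP3L, a mitophagy receptor, went from 1730, 1535 and 1481 to 685, 730 and 581 (-1.23, SE 0.10). BID, also a BH3 protein, was lower (-0.32, limma adjusted p = 0.0229), as was BNIP3 (-0.44). The survival genes BCL2L1 (0.00) and MCL1 (0.10) were not called. Of 13 measured caspases and inhibitors 1 was lower and none higher (median -0.08), CASP6 at -0.54, and 2 were lower without enzastaurin replicate 2. Members of that list were called in 7.69%, against 16% of all genes tested. Of 19 measured p53 targets 5 were higher and none lower (median 0.06), and 4 of the 5 (FAS, SESN2, PMAIP1 and TNFRSF10B) also stand in other lists; the fifth was GADD45A (0.44). TNFRSF10B changed by 0.26, and with probe sets averaged by -0.13 (not called). CDKN1A and MDM2 (-0.12, adjusted p = 0.532), defining targets, were not called on their brightest probe sets. Other probe sets of MDM2 ran from -0.30 to 1.21. Those at 1.21 (limma adjusted p = 0.00649) and 0.37 (0.0246) were called higher.

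Called glucose genes included a transporter and regulators of uptake. Of 25 measured genes 5 were higher and 2 lower (median -0.02). SLC2A3, a high-affinity glucose transporter, went from 380, 267 and 390 to 1187, 1204 and 959 (1.66, SE 0.20, adjusted p = 5.59e-06), and its 3 probe sets lay between 1.66 and 2.32. The main transporter SLC2A1 was not called (-0.23, adjusted p = 0.276). TXNIP and ARRDC4, arrestins that restrain uptake, rose by 0.73 and 0.93. PFKFB3, which makes an activator of glycolysis, went from 2258, 2304 and 2280 to 1489, 1304 and 1116 (-0.81, SE 0.11, adjusted p = 1.41e-05), and HK2 rose by 0.74, lost with probe sets averaged (adjusted p = 0.611). GAPDH, PGK1, ENO1 and LDHA changed by -0.08 to -0.02 and were not called. Of 16 measured glycogen and pentose phosphate genes 2 were higher and 4 lower (median -0.04), with TKT, transketolase, at -0.32; 2 were lower without DMSO replicate 1 or enzastaurin replicate 1. Both higher calls were unstable: none was left without DMSO replicate 1 or enzastaurin replicate 1 or 3, and 1 without any of the other 3 arrays. Of 16 measured hypoxia genes 2 were higher and 4 lower (median -0.11), and 2 were lower without DMSO replicate 2 or enzastaurin replicate 3. VEGFA, the vessel growth factor, went from 1326, 1516 and 1352 to 3498, 3216 and 3049 (1.21, SE 0.09, adjusted p = 5.82e-09), whereas NDRG1 changed by -0.55. Of 19 measured insulin and FOXO genes 2 were higher and 6 lower (median -0.27), 3 of them with probe sets averaged, and 1 was higher without DMSO replicate 1 or enzastaurin replicate 1. SGK1, a kinase downstream of PI3K, changed by -0.73 and IGF1R by -0.59.

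**Figure D3:**
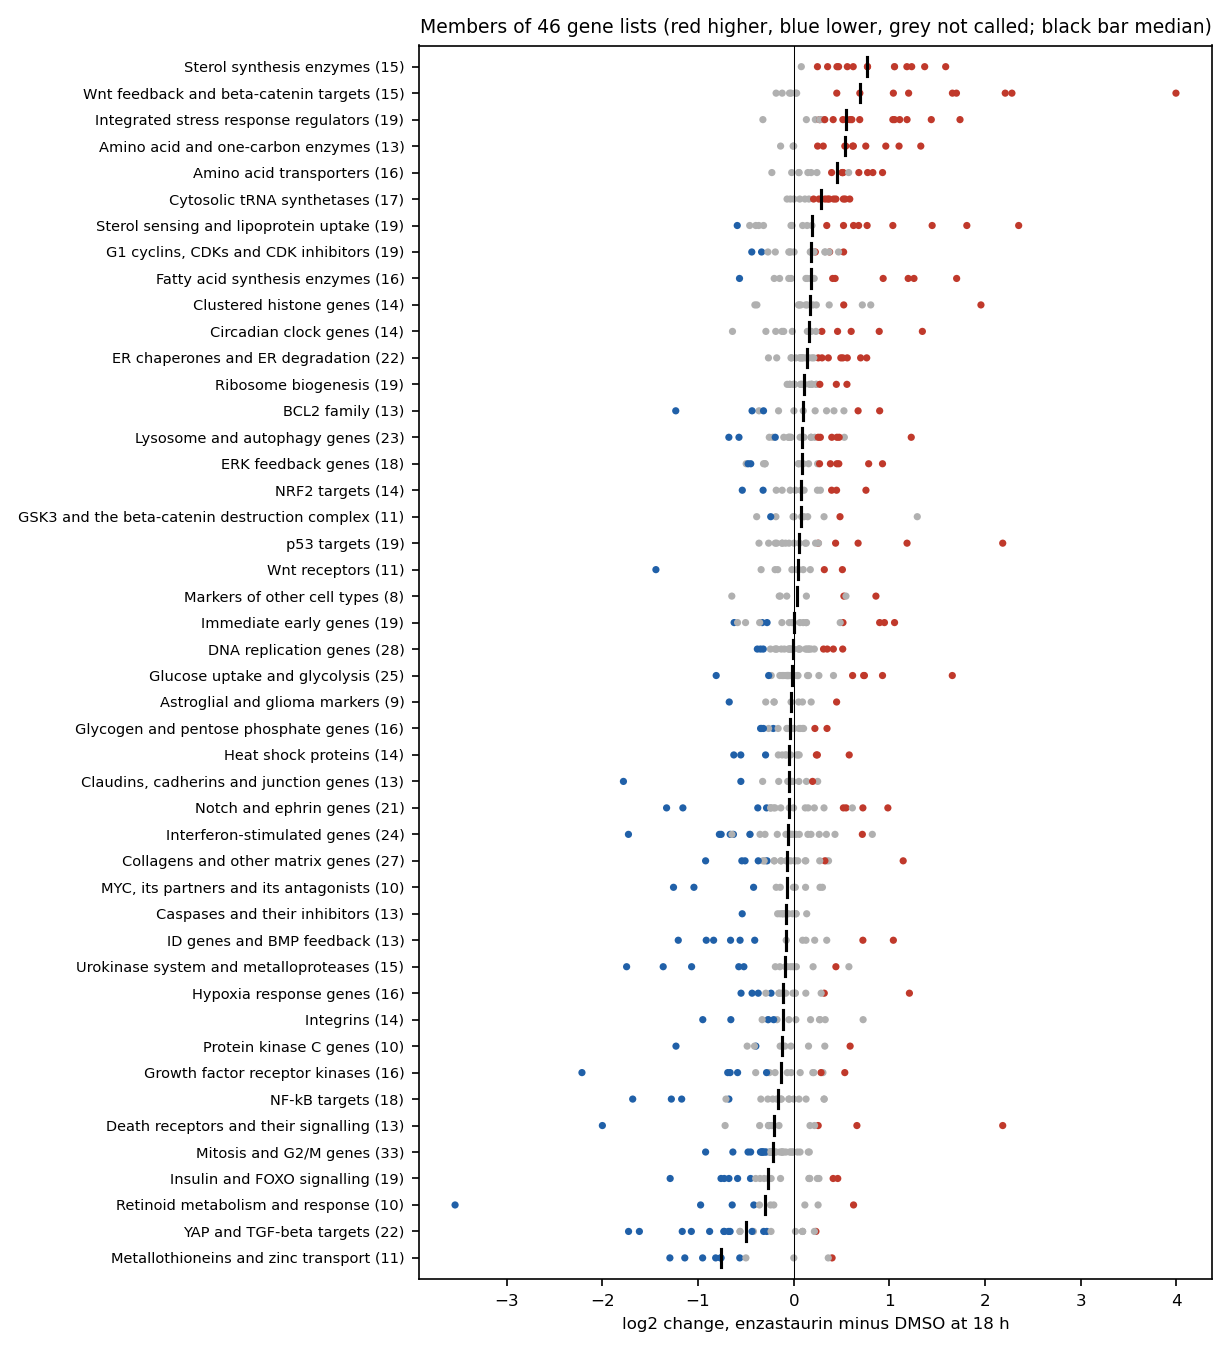
Log2 change at 18 h of every measured member of the 46 gene lists, 1 row per list with the number measured in brackets; red members were called higher, blue lower, grey not called, and the black bar is the median. Sterol synthesis enzymes (median 0.77) stand at the top and metallothioneins and zinc transport (median -0.76) at the bottom, and most medians lie near 0.

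Of 7 measured metallothioneins, small metal-binding proteins, 6 were lower, and MT3 was not called (-0.50, adjusted p = 0.192). Of the list's 11 measured metallothionein and zinc genes 7 were lower and 1 higher (median -0.76). MT2A went from 32617, 30566 and 28651 to 16017, 17735 and 18421 (-0.82, SE 0.08, adjusted p = 5.98e-07). MT1G changed by -1.29 and MT1E by -0.76, with the reserve that the copies are near-identical and probe sets may read more than 1 of them. SLC39A10, a zinc importer, changed by -0.77.

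Among retinoid genes most calls were falls. Of 10 measured 4 were lower and 1 higher (median -0.30), and 1 was lower with probe sets averaged. DHRS3, which reduces retinal and so limits retinoic acid, went from 1018, 976 and 898 to 49, 133.4 and 45 (-3.54, SE 0.50, adjusted p = 3.09e-05). RARB, a retinoic acid receptor, changed by -0.97 and RXRA, its partner, by -0.64, both lost with probe sets averaged (adjusted p = 0.0617 and 0.196). RDH11 rose by 0.63.

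Notch and ephrin genes, with 4 of 21 measured higher and 4 lower (median -0.05), included LFNG, a sugar transferase that modifies Notch, which went from 2408, 2680 and 2368 to 1196, 826 and 947 (-1.33, SE 0.16, adjusted p = 5.75e-06). The 4 higher ones were 2 without DMSO replicate 2 or enzastaurin replicate 1, and the 4 lower ones 2 without DMSO replicate 3. Of 13 measured junction genes 1 was higher and 2 lower (median -0.05): CLDN4, a claudin, changed by -1.78 and the cadherin CDH11 by -0.55, and CDH2 was not called (-0.01). The higher one, CADM1 (0.20, adjusted p = 0.0267), was lost without DMSO replicate 2 or 3 or enzastaurin replicate 1 or 3 (adjusted p = 0.0527 to 0.117), and without DMSO replicate 3 there were 4 lower genes. Of 14 measured heat shock genes 3 were higher and 3 lower (median -0.05), with DNAJB1 up from 8529, 8488 and 9167 to 12751, 12781 and 13635 (0.58) and HSPB1 at -0.55; 1 was higher without DMSO replicate 1 or enzastaurin replicate 1. Of 14 measured NRF2 targets 3 were higher and 2 lower (median 0.08). NQO1, a quinone reductase, went from 23073, 23142 and 23153 to 14723, 15632 and 17556 (-0.54, SE 0.07, adjusted p = 2.14e-05), while SRXN1 and MAFG rose by 0.45 and 0.76.

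Lysosome and autophagy genes had 6 of 23 measured members higher and 3 lower (median 0.09). NEU1, a lysosomal sialidase, went from 879, 661 and 920 to 1717, 1783 and 2327 (1.23, SE 0.15, adjusted p = 6.43e-06), and GABARAPL1, an autophagosome protein, changed by -0.57. Of 14 measured clock genes 5 were higher and none lower (median 0.16), and 3 were higher without DMSO replicate 3. BHLHE40, a repressor of clock genes, went from 1809, 2484 and 1938 to 5199, 5352 and 5206 (1.35, SE 0.12, adjusted p = 5.49e-08). Of 9 measured glial markers 1 was higher and 1 lower (median -0.03): SOX2, a stem cell factor, went from 3054, 3168 and 3250 to 4314, 4538 and 4101 (0.45, SE 0.08), and NES, nestin, from 4086, 4462 and 4669 to 2581, 2960 and 2726 (-0.67, SE 0.08). Both calls were lost with probe sets averaged (adjusted p = 0.101 and 0.125). Of 8 measured markers of other cell types 2 were higher and none lower (median 0.03): SYT1, a synaptic vesicle protein, went from 449, 384 and 429 to 760, 717 and 854 (0.86, SE 0.12, adjusted p = 2.76e-05) and GAD1, which makes GABA, from 1219, 1049 and 1089 to 1786, 1461 and 1610 (0.52, SE 0.11).

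Other probes gave a check on the choice of the brightest probe set. Of the called genes 1167 had a second probe set at or above the level, and in 1043 of them (89.4%) it moved in the same direction; in the 4721 genes that were not called 64.8% did. The second probe set was itself called in the same direction in 439 genes (37.6%), against 5.4% called in either direction among genes that were not called. Among called genes of at least 2-fold, 81 of 88 second probe sets moved the same way and 64 were called. The median ratio of the second change to the first was 0.75. In 1 gene, UQCR10, the second probe set was called in the opposite direction (0.53 against -0.24).

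**Figure D4:**
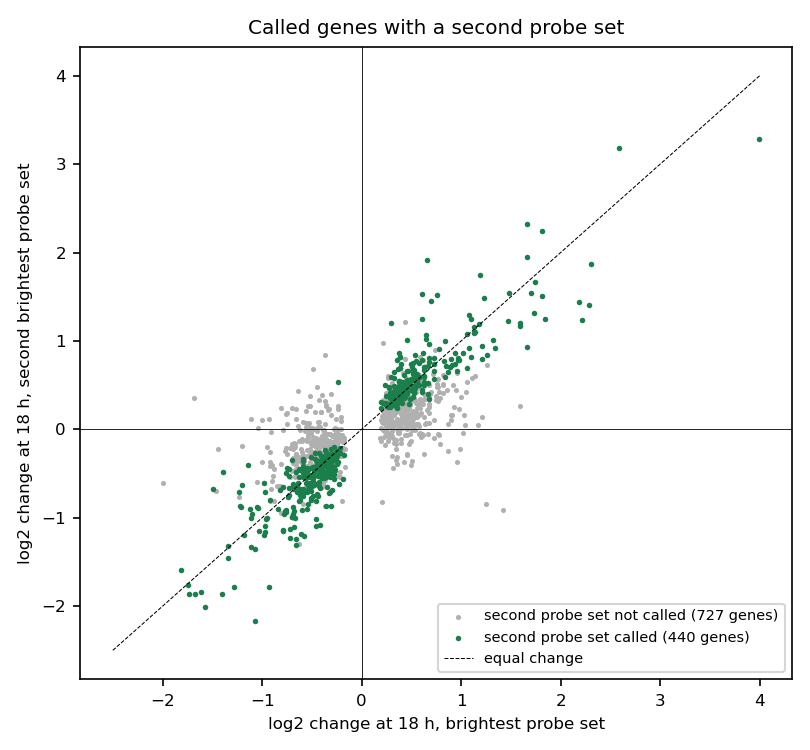
Log2 change at 18 h of the brightest probe set (x axis) and the second brightest probe set (y axis) of the same gene, for the 1167 called genes that have both; green marks a second probe set that was called, grey a second probe set that was not, and the dashed line equal change. Most points lie in the quadrants of equal sign, and the median ratio was 0.75.

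Changes at 18 h were set against those at 10 h and 4 h, which have DMSO arrays of their own. At 10 h 1046 genes (8.45%) were called and at 4 h 224 (1.81%). Of the 18 h calls 602 were also called at 10 h in the same direction, 30.4% of the 18 h calls and 57.6% of the 10 h calls, and 14 in the opposite direction. With 4 h 81 were shared in direction (4.09% and 36.2%) and 23 opposed. Only 68 genes were called in the same direction at all 3 times, and 1335 were called at 18 h alone, although a call at 1 time and not at another does not show a difference. The difference itself passed the test in 276 genes (2.23%) between 18 h and 10 h, 227 of them larger at 18 h, and in 963 genes (7.78%) between 18 h and 4 h, 820 of them larger at 18 h. These counts were 65 and 546 with array medians subtracted and 130 and 543 with probe sets averaged.

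Several named genes changed more at 18 h than at 10 h, by the test of the difference. PLAU changed by -0.10 at 10 h and -1.75 at 18 h, a difference of -1.65 (adjusted p = 4.68e-08). CPA4, a carboxypeptidase, changed by -0.30 and -1.41 (adjusted p of the difference 4.6e-05), and THBS1 by 0.07 and -1.07 (0.00021). FN1 went from 0.19 to 1.14 (0.000696), SLC2A3 from 0.29 to 1.66 (0.0121) and CXCL8 from 0.20 to -1.28 (0.0108). In these 6 genes the change at 18 h was the larger one. NKD1, an inhibitor of Wnt signalling, went from 0.54 to 2.28 (0.00825) and LEF1 from 0.71 to 1.66 (0.00476). BCL2L11 went from 0.30 to 0.90 (0.0037), FAS from 1.23 to 2.19 (0.0352) and GSK3B from 0.06 to 0.48 (0.0318).

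Other named genes were higher above DMSO at 10 h than at 18 h. INSIG1 changed by 2.42 at 10 h and 1.81 at 18 h (adjusted p of the difference 0.00306), SESN2 by 1.93 and 1.18 (0.00982), DDIT4 by 1.84 and 1.11 (0.0286) and XBP1 by 1.03 and 0.56 (0.0188). CCND1 was higher at 10 h (0.66, adjusted p = 6.92e-07) and not at 18 h. The stress response regulators had 12 members higher at 10 h and 4 at 4 h, the sterol enzymes 11 and 1, and the tRNA synthetases 11 and 0.

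A few genes were called in opposite directions at 4 h and 18 h. KLF4, a growth arrest factor, changed by -0.77 at 4 h and 0.95 at 18 h (lost at 18 h with probe sets averaged, adjusted p = 0.0802). IER5, an immediate early gene, changed by -0.59 and 0.52, and HEY1, a Notch target, by -0.46 and 0.72. CAPS, a calcium-binding protein, changed by 0.82 and -1.12. DUSP5, a phosphatase of ERK, changed by -0.70 and 0.47, the latter lost without DMSO replicate 2 (adjusted p = 0.0616).

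**Figure D5:**
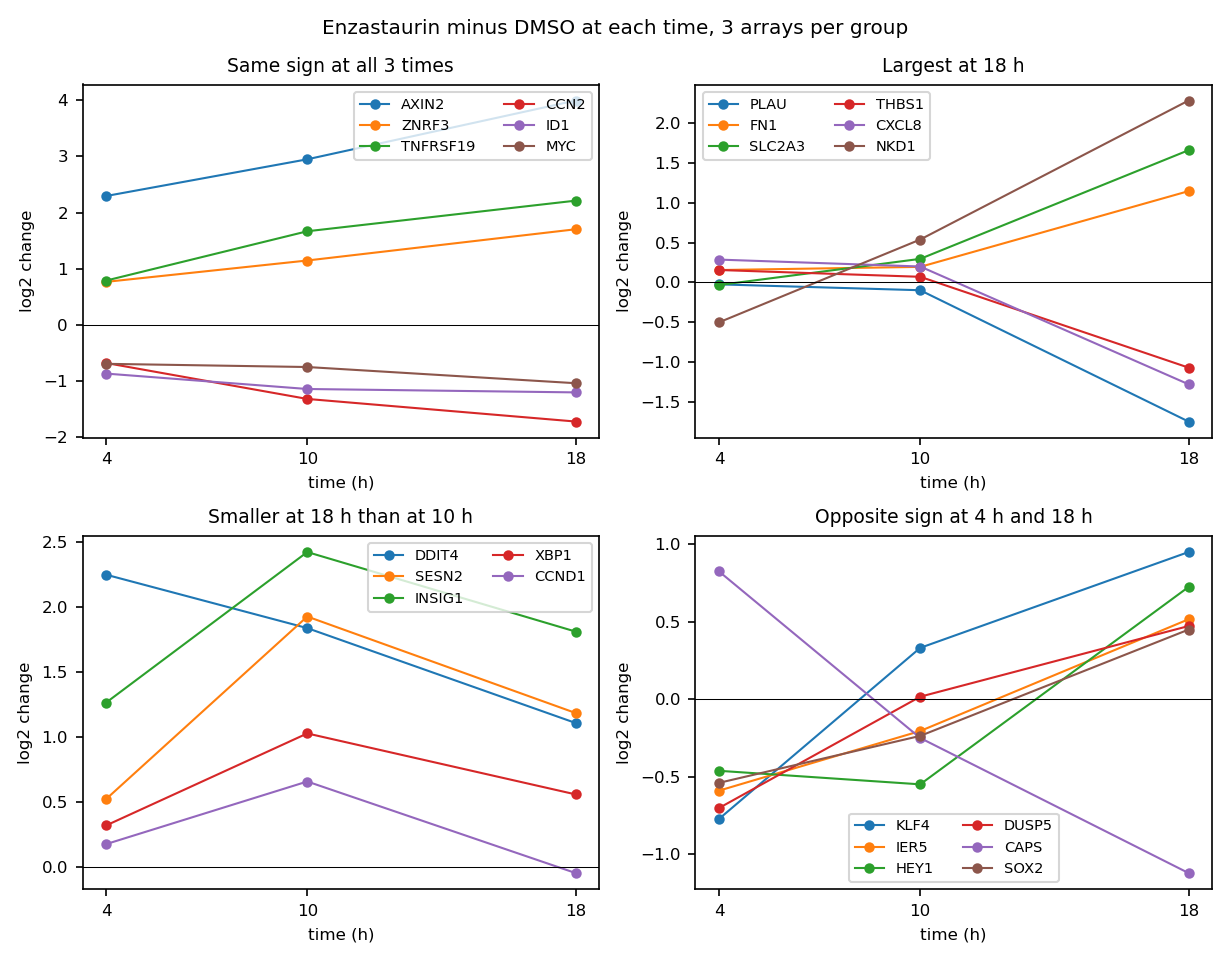
Log2 change (enzastaurin minus DMSO, y axis) of named genes at 4, 10 and 18 h (x axis), each point a difference between means of 3 arrays per group, with standard errors not drawn. Panels hold genes with the same sign at all 3 times, genes largest at 18 h, genes smaller at 18 h than at 10 h, and genes of opposite sign at 4 h and 18 h; PLAU lies at -0.10 at 10 h and -1.75 at 18 h.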

How the data were processed

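RNA from Trizol was turned into biotinylated cRNA and read on HG-U133 Plus 2.0 arrays of Affymetrix, per the labels' protocols. The deposited table gives intensity on a linear scale, made by the authors with GCOS 1.2 per the submitters' processing notes; the trimmed mean (2% off each end) of every array lay between 498.2 and 498.5, so arrays had been scaled to a common level. Of 54613 probe sets 41091 had 1 symbol in the platform annotation, 1801 several and 11721 none. Each of 19775 genes was represented by its brightest probe set (mean log2 value), and 12376 genes at or above the median level (about 102) were tested.

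A model with 1 mean for each of 6 groups was fitted to log2(intensity + 16) of 18 arrays with limma 3.58.1 in R 4.3.3 (trend on level) and tested on simulated data. Adjusted p-values (Benjamini-Hochberg over all genes tested) under 0.05 were called. Deviations of same-numbered arrays from their group means correlated at -0.133 to 0.186, not all over 0.1, and were not paired. The naming rule took the 12 largest rises and falls with groups apart, up to 4 called members per list plus set members and the 6 largest time differences each way. It also took up to 6 genes of opposite sign, MYC, GSK3A and GSK3B. Uncharacterized loci are not named. The rule held 213 genes, and not all are described here, among the largest changes LIPG, TNFRSF19, UBALD1 and UBALD2. BAMBI, HSPA5, AXIN1, MT3, UQCR10, GAPDH, PGK1, ENO1, LDHA, DKK1, SOX9, CD44 and markers under the level were named after their values were seen where the rule did not hold them. BID, TNFRSF12A and MBTPS1 were also named after their values were seen. The 46 lists held 948 genes, of which 740 were tested. Members and lists were chosen with earlier results of these data known. Alternatives changed 1 choice at a time. The average over probe sets of a gene included those under the level. Python 3.11.15 with matplotlib 3.10.9 drew the figures.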

Additional observations from a re-analysis of the deposited data

Results flagged for a closer look

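The effect of enzastaurin differed between times in the tests of the difference itself, in 276 genes between 18 h and 10 h and in 963 between 18 h and 4 h (65 and 546 with array medians subtracted, 130 and 543 with probe sets averaged). The values below are differences on the log2 scale, the 18 h change minus the earlier one, each called by limma at an adjusted p under 0.05. Against 10 h, the change was higher in PCDHAC1 (2.45), GPRC5B (2.11), SIMC1P1 (2.09), NKD1 (1.74), ZSCAN20 (1.57), SLC2A3 (1.36), AXIN2 (1.05), FAS and H2BC12 (0.96 each), LEF1 and FN1 (0.95 each), SOX2 (0.69), FZD7 and BCL2L11 (0.60 each) and GSK3B (0.42). It was lower in ASPG (-2.19), ELFN2 (-1.79), PLAU (-1.65), CXCL8 (-1.48), THBS1 (-1.14), CPA4 (-1.11), DIO2 (-0.85), SESN2 (-0.74), DDIT4 (-0.73), CCND1 (-0.70), INSIG1 (-0.61), XBP1 (-0.47) and NES (-0.46).

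Against 4 h, the change was higher in TAMALIN (3.60), NKD1 (2.78), GPRC5B (2.54), SYTL2 (2.22), KLF4 (1.72), HEY1 (1.18), DUSP5 (1.17) and IER5 (1.10). It was lower in DHRS3 (-3.60), EWSAT1 (-2.95), PRSS35 (-2.35), PDGFRA (-2.09), CAPS (-1.94), SOX2-OT (-1.92) and CCL2 (-1.70). PCDHAC1 and EWSAT1 were not called at 18 h itself.

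Probe sets without a gene symbol, which enter no comparison above, also held changes. Of 3450 such probe sets at or above the level 186 were called at 18 h (5.39%, 93 higher and 93 lower), with the largest rise at 4.06 and the largest fall at -2.53. Probe sets with 1 symbol were called in 12.2%.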

How the results depend on the processing

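Over 17 alternatives the count of called genes stayed within 1.5 times of 1981 except with array medians subtracted, which gave 1187 (561 higher, 626 lower, 1185 of them called before). The share of calls that were higher moved by no more than 10 percentage points in any of them. Leaving out 1 of the 6 arrays gave 1525 to 1824 calls. The count of at least 2-fold changes was 107 with the brightest 25% of probe sets, where fewer genes were tested, and 128 with averaged probe sets. Differences from 10 h and from 4 h numbered 65 and 546 with medians subtracted and 130 and 543 with probe sets averaged; the cause was not tested. With the replicate block 1946 genes were called, 1873 of them shared. Same-numbered arrays were not paired because their deviations did not all correlate over 0.1. That rule does not show that the arrays were unpaired. Of 189 called genes held by the naming rule, 117 were tested and called in all 17 alternatives. Another 15 were called in all but the brightest 25% of probe sets, which did not test them. The call was lost in 45 with probe sets averaged, those under the level included, in 19 with medians subtracted and in 22 without some array. With probe sets averaged the sign turned in ITGB1 (0.0236), DUSP1 (0.0333), CCND3 (-0.1269), TNFRSF10B (-0.1346) and UGP2 (0.2296), none then called. Of 92 list counts (46 lists, higher and lower) 50 moved by over 1.5 times in some alternative, 33 of them without some array, 29 with probe sets averaged and 24 with medians subtracted. Low signal limits dim genes, where 3.49% in the dimmest of 4 bins were called.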

Other observations

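Some of the largest changes at 18 h fell outside the groups described above. FLRT2, an adhesion protein of the cell surface, went from 400, 404 and 325 in DMSO to 1610, 1277 and 1303 in enzastaurin (1.85, SE 0.17, limma adjusted p = 1.28e-07), and its 3 probe sets lay between 1.24 and 1.85. DIO2, the deiodinase that activates thyroid hormone, went from 3918, 3974 and 3921 to 1175, 1173 and 1164 (-1.74, SE 0.07, adjusted p = 1.65e-12), with little spread within either group, and all 5 of its probe sets lay between -1.86 and -1.11. GPRC5A, an orphan receptor known to respond to retinoic acid, went from 486, 546 and 406 to 110, 88 and 221 (-1.75, SE 0.43, adjusted p = 0.00707). SOX2-OT, the noncoding transcript that spans SOX2, went from 588, 626 and 652 to 220, 222 and 144 (-1.62, SE 0.14, adjusted p = 9.03e-08), while SOX2 itself rose (0.45).

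Promoters of higher genes had a median GC content of 66.7% (823 genes), those of lower genes 64.7% (824) and those of genes not called 64.7% (8432); this was not tested.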
